A study of Mus musculus with 2 samples.

Results

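CTCF deserts are the long stretches of a chromosome in which no CTCF-bound region was listed, and the regions at their edges are the last ones listed before such a stretch. In this map of thymocyte chromatin, adjoining windows of 25 bp were joined into regions on autosomes 1 to 19. Every region that bordered a gap of over 1 Mb to its neighbour on at least 1 side was kept. This gave 541 edge regions of 50386 autosomal regions (1.07%), around 280 deserts. The whole map held 51660 regions on the autosomes and the X. Of the edge regions, 522 had a desert on 1 side and 19 had a desert on both sides.

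CTCF recognises a long DNA motif through its zinc fingers and holds chromatin loops in place together with the ring-shaped cohesin complex. Its sites mark many boundaries between chromatin domains, and in developing T cells they shape the contacts of the antigen receptor loci before recombination. CTCF sites are known to be frequent in gene-rich chromatin and rare in long gene-poor stretches. Loops were not measured here.

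The study located CTCF sites in lymphocyte subsets by chromatin immunoprecipitation and sequencing (ChIP-seq). The labels list 2 libraries of CD4+CD8+ (double-positive, DP) thymocytes, 1 precipitated with a CTCF antibody and 1 of input DNA, both from C57BL/6 mice aged 4 to 8 weeks. All mice were Rag1 -/- and carried a rearranged TCRbeta transgene. Without the Rag1 recombinase the endogenous receptor genes stay unrearranged, and the transgene lets thymocytes reach the double-positive stage, so the cells model that stage and not a normal thymus. Chromatin was fixed with 1% formaldehyde for 10 minutes. Only the 912174 deposited windows of the CTCF library were analysed here, and the input was not analysed here. The windows carry no height, read count or score, so the depth is unknown and a region is known by its position and width alone. No gene expression was measured, so the labelled cell type could not be set against its markers.

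The gaps chose the members, so desert lengths and gaps are a description and carry no test. Width and the spacing on the far side of the edge were not used by the rule. They too were not tested, because there was 1 CTCF library and neighbouring regions are not replicates. Intervals on shares (exact binomial, 95%) and on medians (order statistics, 95%) cover counting error over regions only. Positions are in mm9, counted from 1.

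Deserts took up a large part of the autosomes while being few. The 280 deserts were 0.556% of the 50367 gaps between neighbouring regions, whose median was 12.9 kb, and they spanned 557 of 2470 Mb, or 22.5% of the autosomal length up to the last listed positions. Their median length was 1.70 Mb (interval 1.57 to 1.79 Mb), with quartiles of 1.25 and 2.40 Mb. Most were short for deserts: 181 were at most 2 Mb long (64.6%), 53 were 2 to 3 Mb, 41 were 3 to 5 Mb and 5 were longer than 5 Mb. Outside the deserts the autosomes held 26.3 regions per Mb, and over their whole length they held 20.4.

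The threshold of 1 Mb did not fall at a break in the lengths. Between 0.9 and 1 Mb there were 47 gaps, and between 1 and 1.1 Mb there were 38. The 5 deserts nearest above the threshold were 1.002, 1.003, 1.007, 1.012 and 1.016 Mb long, on chromosomes 9, 7, 2, 17 and 19. The 5 gaps nearest below it were 0.993, 0.991, 0.991, 0.989 and 0.988 Mb long, on chromosomes 7, 5, 3, 3 and 19.

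The longest desert measured 7.71 Mb and lay on chromosome 7 (39067705 to 46772954). Its edge at lower coordinates was a short region of 125 bp and its edge at higher coordinates a region of 650 bp. The short one was no lone region: 12 regions lay within 100 kb on the side away from the desert, the nearest 50 bp away, the highest number for any edge region. A gap as long as this thus began directly beside a crowded stretch.

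The other deserts longer than 5 Mb lay on chromosomes 12, 5, 1 and 1. The desert on chromosome 12 measured 5.83 Mb (46545211 to 52377035), between regions of 575 and 650 bp. The desert on chromosome 5 measured 5.53 Mb (78338621 to 83869170), between regions of 350 and 600 bp. On chromosome 1 deserts of 5.35 Mb (146254246 to 151605720) and 5.07 Mb (25567596 to 30641570) were found, the first between regions of 650 and 275 bp and the second between regions of 500 and 650 bp. Each of these 4 deserts had at least 1 edge of 600 bp or more.

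Ranks 6 to 10 were 4.19 to 4.95 Mb long. A desert of 4.95 Mb on chromosome 7 (7252605 to 12202329) lay between regions of 675 and 325 bp. On chromosome 4 a desert of 4.88 Mb (26471211 to 31346335) began at a region of 25 bp, a single window, and ended at 500 bp. The desert of 4.53 Mb on chromosome 8 (98769449 to 103296673) lay between regions of 50 and 175 bp. On chromosome 15 a desert of 4.19 Mb (14558480 to 18751004) began at 75 bp and ended at 600 bp. Rank 10, also 4.19 Mb, was on chromosome 14 (93163845 to 97353619), between regions of 150 and 325 bp. Of these 5 deserts, all but the first and the last had an edge of at most 75 bp, which none of the 5 longest had.

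Every autosome carried deserts, and their share of the length differed by chromosome. It was highest on chromosome 8 (28.9%, 19 deserts) and chromosome 1 (28.5%, 25 deserts), followed by chromosome 3 (26.6%), chromosome 14 (26.3%) and chromosome 4 (26.2%). It was lowest on chromosome 11 (12.7%, 8 deserts), chromosome 9 (13.8%, 11 deserts) and chromosome 19 (14.7%, 6 deserts). The longest desert of each autosome ran from 2.29 Mb on chromosome 9 (15742501 to 18034600) to 7.71 Mb on chromosome 7. The median length ran from 1.28 Mb on chromosome 19 to 2.18 Mb on chromosome 14.

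**Figure D1:**
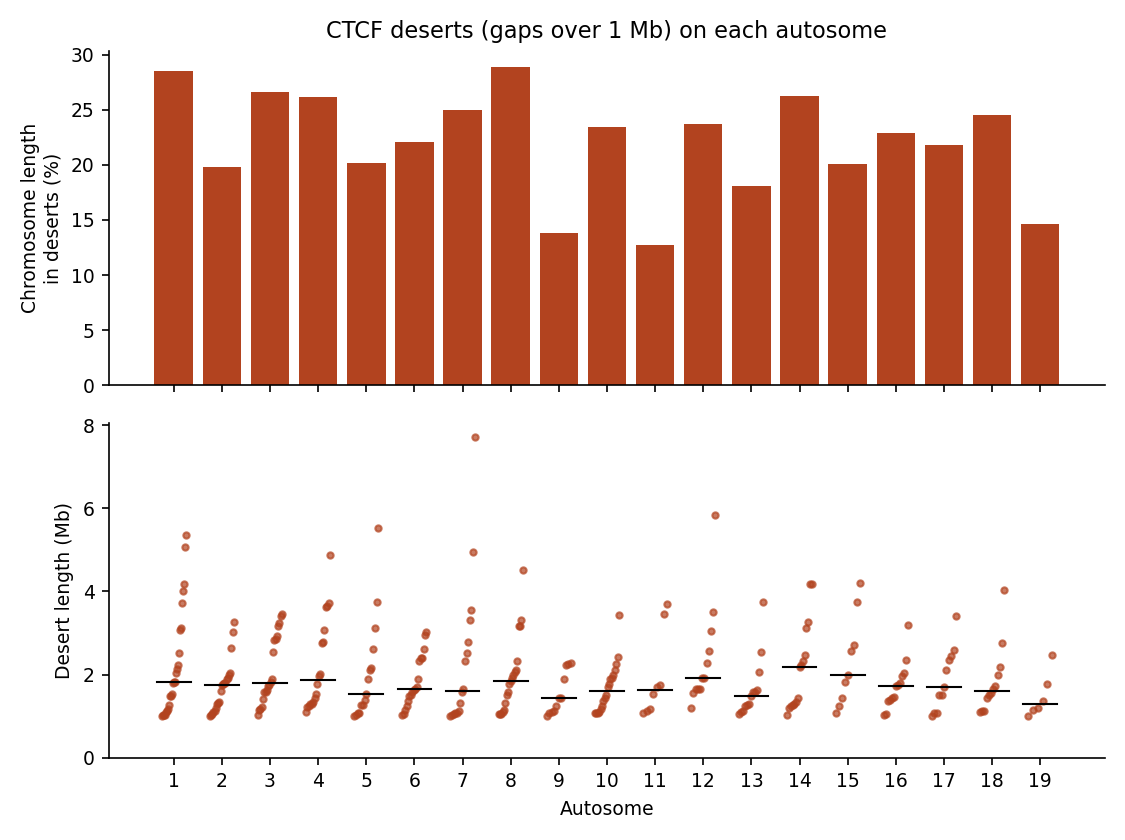
Deserts on each of 19 autosomes. The upper panel gives the percent of chromosome length inside gaps of over 1 Mb, from 12.7% on chromosome 11 to 28.9% on chromosome 8, and in the lower panel each point is the length of 1 desert in Mb, sorted within its chromosome, with a line at the median. Chromosome 7 carries the longest desert, 7.71 Mb.

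Chromosomes with more genes tended to have less of their length in deserts. Over the 19 autosomes the desert share and the number of protein-coding genes per Mb had a Pearson's r of -0.53 and a Spearman's rho of -0.48, given as a description with no p. Gene numbers were taken from the RefSeq table for GRCm38, and no position was carried between builds. Leaving out chromosomes 11 and 7, which lay farthest from the median gene density, gave an r of -0.59. Chromosome 7 went against the trend, with the highest gene density (13.3 per Mb) and a desert share of 24.96%. Chromosome 11, with 13.2 genes per Mb, had the lowest share. Both measures share the chromosome length as denominator.

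Along the chromosomes, deserts took up the least length at the high-coordinate end. Mouse autosomes have their centromere at the low-coordinate end. Cut into 10 equal parts, the chromosomes had 26.7% to 30.0% of their length in deserts in parts 2 to 6, 18.4% in part 7, 24.5% in part 8, 15.2% in part 9 and 10.3% in part 10. The density of regions ran the other way, with 17.2 to 19.5 per Mb in parts 2 to 6, 20.4 in part 7, 21.4 in part 8, 27.3 in part 9 and 31.7 in part 10. Part 1 held 18.2% in deserts and 10.5 regions per Mb, but the rule counts gaps between regions and leaves out the stretch before the first one. That stretch is still counted in the length of part 1 and of the whole chromosome. Whether reads could be placed in it was not tested. On 17 of 19 autosomes the first region lay between 3.01 and 3.50 Mb. On chromosome 1 it lay at 4.32 Mb and on chromosome 14 at 6.24 Mb.

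Deserts often came in series, separated by narrow strips of regions. Between consecutive deserts of a chromosome there were 261 stretches, with a median of 48 regions and a median span of 3.02 Mb (quartiles 0.796 and 7.34 Mb). Of these stretches 74 (28.4%) spanned less than 1 Mb, and their median was 2.5 regions. In 52 stretches (19.9%) there were at most 5 regions. At the other end, the longest of these 261 stretches ran over 50.6 Mb of chromosome 9 with 1488 regions (40000001 to 90594250). Next among them in number came 1149 regions over 36.3 Mb of chromosome 14 (44382245 to 80669394). The parts of a chromosome before its first and after its last desert were not counted, and they can be longer. On chromosome 5 no desert lay between 96367220 and the last listed position, at 152.5 Mb.

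When deserts less than 1 Mb apart were joined, 128 of the 280 fell into 54 series, and 13 series held at least 3 deserts. The longest series, on chromosome 14, joined 7 deserts over 18.5 Mb (80669395 to 99149944). Only 21 regions lay inside it, 1.14 per Mb, and 3 of them were full-width (at least 0.625 kb, the most frequent width of the map). It began where the stretch of 1149 regions ended, which held 31.7 regions per Mb, against 26.3 outside all deserts. This chromosome thus held a very long occupied stretch and a very long nearly empty one side by side. The border was not abrupt: the last region of the occupied stretch had its next neighbour 356 kb away and 2 regions within 500 kb. On chromosome 15 a series of 4 deserts spanned 11.4 Mb (13111280 to 24518554) with 5 regions inside. On chromosome 1 a series of 3 deserts spanned 10.5 Mb (109378571 to 119909245) with 9 regions inside, none of them full-width, and a median width of 150 bp.

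The 19 regions with a desert on both sides were the most isolated members. They lay on 10 chromosomes and were 0.025 to 0.625 kb wide, with a median of 325 bp (interval 150 to 500 bp). Of them, 14 were narrower than 400 bp and 1 was full-width. The region with the longest surrounding emptiness was 150 bp wide on chromosome 1 (103798246 to 103798395), with deserts of 3.72 and 3.08 Mb beside it. Next came a region of 150 bp on chromosome 14 (93163695 to 93163844), between deserts of 2.33 and 4.19 Mb. A region of 75 bp on chromosome 15 (14558405 to 14558479) stood between 1.45 and 4.19 Mb. Another of 150 bp on chromosome 1 (118374446 to 118374595) stood between 4.02 and 1.53 Mb, and a region of 350 bp on chromosome 12 (63994111 to 63994460) between 3.51 and 1.92 Mb. The first 4 of these 5 were at most 150 bp wide, whereas widths among all 19 reached 0.625 kb. Width does not measure the amount of binding.

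Edge regions were full-width less often than the other regions of the map. Their median width was 450 bp (interval 400 to 475 bp, n = 541), against 525 bp in the other autosomal regions (n = 49845). Full-width regions, of at least 0.625 kb, made up 13.3% of edge regions (10.6 to 16.5%, 72 regions) and 30.3% of the other regions (29.9 to 30.7%). The lower quartile was 225 bp in both, and the upper quartile was 575 bp at the edges and 0.625 kb elsewhere. The share of full-width regions was lower at the edges than elsewhere on each of the 19 autosomes, with the smallest differences on chromosome 19 (33.3% of 12 edge regions, 33.7% elsewhere) and chromosome 13 (26.9% of 26, 27.6% elsewhere). The median width was also lower at the edges on each of the 19.

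The shape of the width distribution differed as well. The most frequent single width at the edges was 325 bp, with 47 regions (8.69%), whereas 3.84% of the other regions had it. Widths of 300 to 350 bp made up 13.9% of edge regions and 7.67% of the others. Widths of 575 to 675 bp made up 27.2% of edge regions and 35.5% of the others. Both groups had peaks at these places, and the lower peak carried more of the edge regions than of the others. So did the bins of 50 bp centred at 475, 525 and 575 bp. They held 9.06%, 10.9% and 15.9% of edge regions, against 5.28%, 8.49% and 13.2% of the others. In the next bin, just over 600 bp, lay 9.80% of edge regions and 17.9% of the others. The bound for full-width regions lies in that bin, so edge regions just under it were not counted as full-width.

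Very short regions were not more frequent at the edges. Regions of at most 75 bp, of 1 to a few windows, made up 12.6% of edge regions (9.89 to 15.7%, 68 regions) and 14.2% of the others (13.9 to 14.6%). Since the desert side is empty by the rule, their company was compared per side. Another region lay within 200 bp on the far side of 17 of the 66 short edge regions with a desert on 1 side (25.8%, 15.8 to 38.01%), against 33.7% of the 14193 sides of the other short regions (32.9 to 34.5%), and these intervals overlapped.

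The opposite ends of a desert differed in median width and less in the share of full-width regions. Regions at the lower end had a median width of 475 bp (interval 400 to 500 bp), and regions at the higher end had 362.5 bp (325 to 475 bp). These intervals overlapped. Widths of 300 to 350 bp made up 11.4% of lower ends and 17.5% of higher ends. Full-width regions made up 13.2% of lower ends and 12.9% of higher ends. The width of 325 bp was found 31 times at higher ends and 20 times at lower ends. Of the 280 deserts, 6 had a full-width region at both ends, 61 at 1 end and 213 at neither. Both ends were at most 75 bp wide in 2 deserts, and 1 end was in 66.

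The widest member was far outside this range. A region of 4075 bp on chromosome 17 (39979777 to 39983851) bordered a desert of 2.59 Mb on its lower side. It was also the widest region of the autosomes, the widest of the others being 2550 bp. On its far side another region followed after 375 bp, and no further one lay within 500 kb. Whether reads of the input also piled up there was not tested. Without this region the median edge width was unchanged at 450 bp.

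The next widest edge regions lay on chromosome 19 (1200 bp, 20419311 to 20420510), chromosome 11 (1025 bp, 90558521 to 90559545) and chromosome 7 (1000 bp, 91927530 to 91928529). They bordered deserts of 1.37, 1.71 and 2.33 Mb. A further region of 875 bp on chromosome 7 (85711405 to 85712279) had its neighbour 25 bp away and 9 regions within 100 kb. The remaining 5 of the 10 widest measured 700 to 850 bp, on chromosomes 3, 1, 11, 13 and 19, with a region on chromosome 5 tied at 700 bp. Regions over 1 kb numbered 3 among the 541 edge regions and 525 among the 49845 others.

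From gaps of 10 to 25 kb upward, the share of full-width regions went down with gap length well before a gap reached 1 Mb. Regions were grouped by the longer of their gaps to either neighbour. The share of full-width regions was 30.1% (29.3 to 30.99%) where this gap was at most 10 kb, 33.3% (32.5 to 34.1%) where it was 10 to 25 kb and 29.8% at 50 to 100 kb. It was 25.1% at 100 to 250 kb, 21.2% (19.1 to 23.5%) at 250 to 500 kb and 15.4% (12.7 to 18.4%) at 0.5 to 1 Mb. Among the members it was 11.9% (8.66 to 15.8%) beside gaps of 1 to 2 Mb and 15.8% (11.01 to 21.7%) beside gaps of over 2 Mb. The intervals of the last 3 classes overlapped, so no further step was detectable at the threshold itself. The share of very short regions, 23.2% where both gaps were at most 10 kb, was 10.1% to 12.9% in every longer class.

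**Figure D2:**
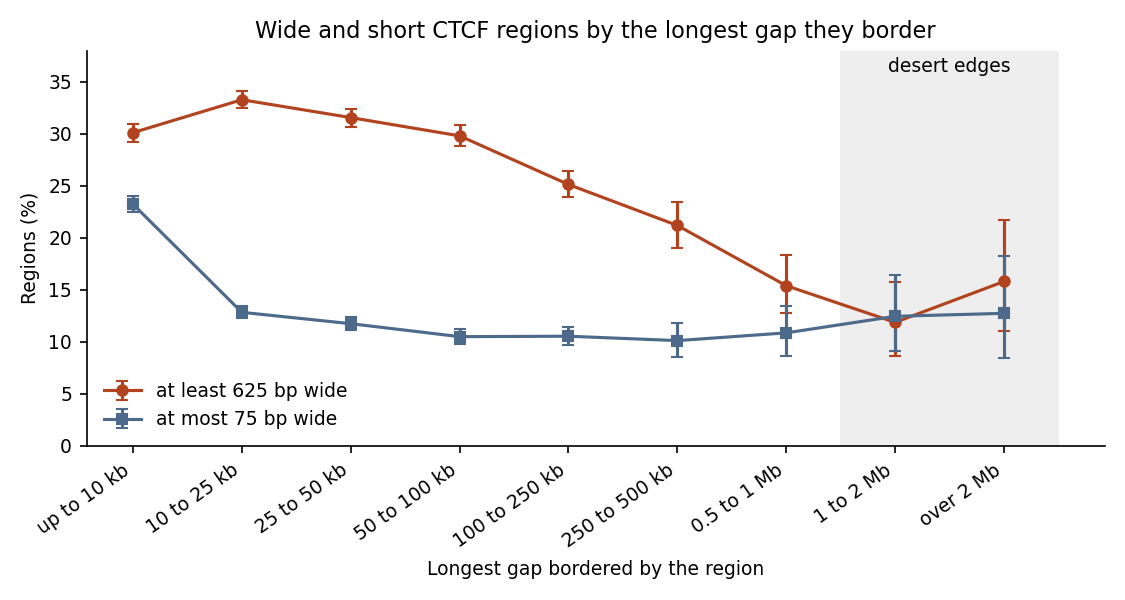
Percent of autosomal regions at least 0.625 kb wide (circles) and at most 75 bp wide (squares), by the longest gap each region borders, with exact 95% binomial intervals. The share of full-width regions is 30.1% up to 10 kb, 33.3% at 10 to 25 kb and 11.9% to 15.8% in the shaded classes, which are the desert edges.

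The regions behind the edge came closer to the rest over the first few places. Counting away from the desert and leaving out other edge regions, 19.8% of the first regions after the edge were full-width (16.3 to 23.7%, n = 474). It was 23.5% of the second (19.8 to 27.5%, n = 490) and 25.9% of the third (22.1 to 29.9%, n = 510). At place 5 the share was 23.4% (19.9 to 27.2%), at place 10 it was 28.7% (24.9 to 32.7%) and at place 15 it was 25.9% (22.2 to 29.9%). At place 20 it was 27.3% (23.5 to 31.3%) and at place 30 it was 24.95% (21.4 to 28.8%). The interval at place 30 still lay under the 30.3% of all regions other than edge regions. Place 8 was highest with 32.8% and place 9 lower with 22.7%, so single places varied by more than these steps. The interval of the edge itself, 10.6 to 16.5%, overlapped that of the first place by a small margin only and none of those listed beyond it.

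Edge regions stood in sparse surroundings on both sides, not only on the side of the desert. The distance from an edge region to the next region away from its desert had a median of 63.3 kb (interval 51.0 to 79.5 kb, n = 519), against 12.7 kb (12.5 to 12.9 kb) on each side of the other regions. A further 3 edge regions were the first or last of their chromosome and had no such neighbour. The next region lay within 10 kb for 21.002% of edge regions (17.6 to 24.8%) and 44.4% of the other sides. It lay over 500 kb away for 52 edge regions (10.0%) and 0.694% of the other sides. By the rule this distance is at most 1 Mb in every member with a desert on 1 side. Regions whose longest gap was 0.5 to 1 Mb had a median of 60.8 kb (50.2 to 68.7 kb, n = 662) on their other side, so the sparse far side was not particular to gaps of over 1 Mb.

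Within 100 kb away from the desert there was a median of 1 region for edge regions and 4 for each side of the others. In 221 of 522 cases (42.3%) there was none, and in 36 (6.90%) there were at least 5, compared with 47.3% of the other sides. The 221 include the 3 edge regions at the end of a chromosome. The 3 most crowded edges were the region of 125 bp on chromosome 7 with 12, a region of 325 bp on chromosome 4 (41781411 to 41781735) with 11, and a region of 675 bp on chromosome 7 (16497355 to 16498029) with 10. Abrupt borders, where a dense stretch stops at a desert, were thus present and uncommon. In most cases few or no regions lay close behind the edge.

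The low density reached far beyond the edge. In the first 50 kb away from the desert there were 14.9 regions per Mb, and from 50 to 200 kb there were 12.5. The density was 14.8 per Mb at 200 to 500 kb, 17.0 at 0.5 to 1 Mb, 16.3 at 1 to 2 Mb and 18.1 at 2 to 5 Mb, still under the autosomal mean of 20.4. Around the other regions it was 53.1 per Mb in the first 50 kb and 26.7 at 2 to 5 Mb. The second set of values lies above the mean because regions in crowded stretches are counted most often. Windows of neighbouring members overlap and may run into the next desert, so no interval is given.

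**Figure D3:**
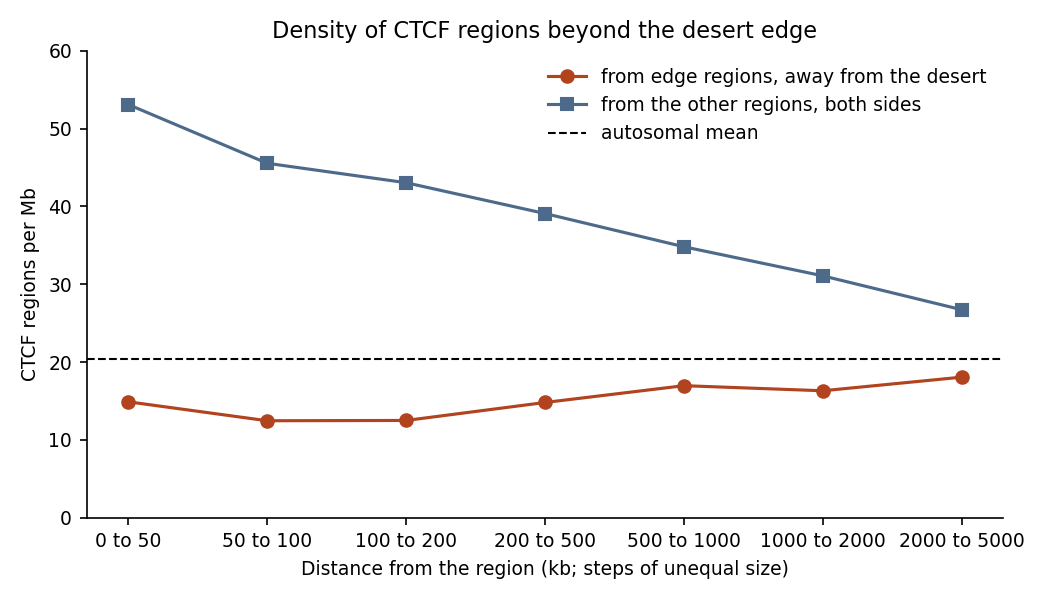
CTCF regions per Mb at increasing distance in kb from edge regions, away from their desert (circles), and from the other autosomal regions, both sides (squares), with the autosomal mean of 20.4 per Mb as a dashed line. The values from edge regions stay between 12.5 and 18.1 per Mb, under the mean at each distance.

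The narrower width and the sparse surroundings moved together. Counting both sides, edge regions had a median of 5 other regions within 500 kb, and the other regions had 38, but the rule itself sets the desert side of an edge region to 0. On the side away from the desert alone, the median was 5 for edge regions, against 19 for each side of the others. No region lay there for 55 of 522 edge regions (10.5%), among them the 3 at the end of a chromosome, and for 0.731% of the other sides. Widths were therefore compared at equal local density in both ways. At equal density over both sides, the shares of full-width regions lay close. With 1 to 2 neighbours within 500 kb, 6.92% of edge regions (3.21 to 12.7%, n = 130) and 9.61% of the others (6.12 to 14.2%, n = 229) were full-width. With 3 to 5 neighbours it was 8.89% (3.92 to 16.8%, n = 90) and 15.8% (13.003 to 19.005%, n = 600). With 6 to 10 it was 17.8% (11.4 to 25.9%, n = 118) and 19.8% (17.9 to 21.7%, n = 1761), and with 11 to 20 it was 23.8% (15.9 to 33.3%, n = 101) and 26.3% (25.3 to 27.4%, n = 6544).

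The intervals of edge and other regions overlapped in each of the 7 classes of density over both sides. Of the edge regions 13.3% were full-width, compared with 16.1% of the other regions weighted to the edge regions' densities over both sides and 30.3% of the others unweighted. The difference of 17.0 percentage points was thus 2.84 points with this weighting, which includes the empty side that chose the members. Very short regions made up 12.6% of the edge regions, against 12.5% of the others with the same weighting.

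At equal density on 1 side the difference was larger. Of the 522 edge regions with a desert on 1 side, 13.6% were full-width, against 25.04% of the other regions weighted to the same number of regions within 500 kb on 1 side, a difference of 11.4 points. The others entered once for each of their sides, so a width is counted repeatedly and their intervals are too narrow. With 1 to 2 neighbours on that side, 6.92% of edge regions (3.21 to 12.7%, n = 130) were full-width. Among the others it was 21.9% (20.5 to 23.3%, n = 3442 sides). With no neighbour it was 3.64% of edge regions (0.443 to 12.5%, n = 55) and 15.5% of the others (12.9 to 18.3%). With 3 to 5 it was 8.89% (3.92 to 16.8%) and 24.7% (23.7 to 25.8%), and with 6 to 10 it was 17.8% (11.4 to 25.9%) and 27.4% (26.7 to 28.2%). With 11 to 20 it was 23.8% (15.9 to 33.3%) and 29.5% (29.001 to 30.04%). The intervals did not overlap in any class of up to 10 neighbours, and they overlapped in the denser classes. The size of the difference thus depended on whether the side that chose the members was counted. What makes regions in sparse stretches narrower was not tested.

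**Figure D4:**
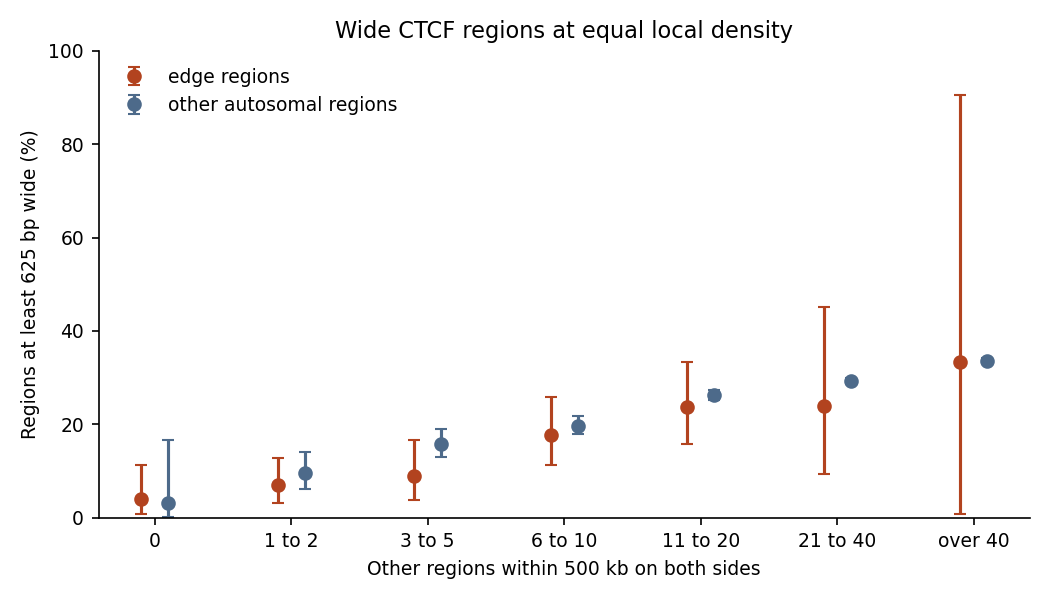
Percent of regions at least 0.625 kb wide among edge regions (left point of each pair) and other autosomal regions (right point), by the number of other regions within 500 kb on both sides, with exact 95% binomial intervals. Both rise with local density, from 4.05% and 3.23% with no neighbour to 23.8% and 26.3% with 11 to 20, and the intervals overlap in each class. The desert side of an edge region counts 0 by the rule. The comparison without the desert side, in which the difference was larger, is not drawn. The class over 40 holds only 3 edge regions.

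The X was not part of the members, and its edge regions were narrower than its other regions too. It had 46 edge regions around 25 deserts, 3.61% of its regions, and deserts took up 39.95% of its length. On the X, 6.52% of edge regions (1.37 to 17.9%) and 19.7% of other regions (17.5 to 22.0%) were full-width. Median widths were 375 bp (300 to 500 bp) and 525 bp (500 to 525 bp). The intervals overlapped slightly for the share, which rests on 3 full-width edge regions, and met at 500 bp for the median.

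Loci known for CTCF binding or for thymocyte biology were set beside the deserts as a description only. Of 20 windows with bounds rounded to whole Mb from general knowledge of mm9, 1 overlapped a desert and 4 others had one within 1 Mb. The overlap was at Igk, the locus of the immunoglobulin kappa light chain, which B cells and not T cells rearrange. Its desert of 1.48 Mb on chromosome 6 (68618871 to 70097070) lay between a region of 575 bp and a region of 200 bp. The region of 200 bp had another 50 bp beyond it and no further one within 500 kb, so this desert ended in an isolated pair of regions.

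Among the T cell genes, Gata3, which encodes a regulator of T cell fate, had a desert of 1.79 Mb on its low-coordinate side (chromosome 2, 6770849 to 8560798), with edges of 475 and 600 bp. The desert nearest to Rag1/Rag2, the recombinase genes, measured 1.92 Mb (chromosome 2, 99077349 to 100999523). It began at a region of 325 bp that had a desert on both sides and ended at one of 150 bp. Beside Ets1, a transcription factor of lymphocytes, a desert of 1.24 Mb (chromosome 9, 33068001 to 34306050) lay between regions of 275 and 650 bp. Near Cd8a/Cd8b1, the co-receptor genes, the desert was that of Igk. The windows of Tcra/Tcrd, Igh, Tcrb and Tcrg, the loci of the T cell receptor chains and the immunoglobulin heavy chain, and of Bcl11b, Myc and the Hoxa and Hoxd clusters, had no desert within 1 Mb. Since no mm9 annotation was used, none of these regions is placed in a gene, exon or promoter.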

How the data were processed

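CTCF ChIP-seq of DP thymocytes was taken from a deposited list of windows in which the authors placed peaks. Per the submitters' processing notes, Bowtie was the aligner and mm9 the build. How peaks were called, at which threshold and with or without the input is not given in the sources used. The list held 912174 windows of 25 bp, none repeated and 0 of another length, with no value per window, so depth is unknown. Starts were read as counted from 0. Adjoining windows (gap 0 bp) were joined and gaps between neighbours measured. No genome or annotation of mm9 was used, so no sequence, base composition or mappability is given, and whether reads could be placed inside the deserts was not tested. Members, loci and measures were chosen with earlier results of these data known. Deserts named in the text are the 10 longest, the 5 on each side of the threshold, those at the 20 loci, and series of deserts, and regions named are the 10 widest, the 5 most isolated and the 3 most crowded. The series and stretches were picked after their values were seen. Gap finding was tested on simulated windows with known deserts. Alternatives joined regions separated by up to 100 or 1000 bp, dropped regions of up to 75 bp, kept those of at least 525 bp (the median), or set desert lengths of 0.5 and 2 Mb. Software was SciPy 1.17.1, NumPy 2.4.6, Python 3.11.15, matplotlib 3.10.9 and pandas 2.3.3.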

Additional observations from a re-analysis of the deposited data

How the results depend on the processing

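Joining regions at most 100 or 1000 bp apart left all 280 deserts in place with the same bounds. Without regions of at most 75 bp there were 296 deserts, of which 212 had the same bounds and 19 held none of the original ones. With only regions of at least 525 bp there were 377, covering 33.3% of the autosomes, and the longest was 11.7 Mb. Of these 377, 42 had the same bounds as before and 129 held none of the original deserts. With gaps of over 0.5 Mb there were 652 deserts and 1203 edge regions, and with gaps of over 2 Mb there were 99 and 196, which covered 12.3% of the length. The share of short edge regions was 9.46% after joining at 1000 bp. The median distance away from the desert was 85.9 kb after joining at 1000 bp and 80.2 kb with gaps of over 2 Mb. The median edge width was 500 bp without short regions. The difference in full-width regions, edge minus other, was -17.0 percentage points, and it was -19.8 and -21.6 after joining at 100 and 1000 bp. It stayed negative in the other settings run for it (-19.3 to -14.4) and was -2.84 at equal density over both sides and -11.4 at equal density on 1 side. All settings for this difference were chosen after seeing the data. The number of edge regions and deserts moves with the length set for a desert by construction, and the cause of the other shifts was not tested. No paired analysis was possible because the labels give 1 CTCF library. Without depth, a desert shows that no window was listed there and not that CTCF was absent.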
